A study of Mus musculus with 30 samples.

Results

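The late response to lipopolysaccharide (LPS) was examined in dendritic cells that lack Irf4. The 10 arrays compared were the 5 of CD11c-Cre IRF-4 flox/flox cells after 24 h of LPS (KO LPS 24 h) and the 5 of unstimulated cells of that genotype (KO unstimulated), chosen by their labels from the 30 arrays of the series. Arrays of the same genotype after 6 h of LPS (KO LPS 6 h) and of CD11c-Cre cells after 24 h of LPS or unstimulated (control) entered the 2 further comparisons, with 5 arrays per group. All cells were grown from bone marrow of C57BL/6 mice, all carried the CD11c-Cre transgene, controls included, and all were taken with CD11c magnetic beads after the treatment. The deletion is therefore driven by the CD11c promoter, in cultures that are mixed before the bead step, and CD11c-low cells were not profiled. The series title speaks of dendritic cells low and high in MHC class II, but no sample label gives such a sort, so whether these cells were also separated by MHC class II is not known here. Neither ages nor the origin of a replicate (separate mice or separate cultures) were given in the sources used here, and the p-values speak only for the scatter of these arrays. Each array set Cy5-labelled cRNA of a sample against a Cy3-labelled universal mouse reference, and a level below is the log2 ratio of the 2 dyes. The common reference drops out of a difference between groups, but levels of different genes cannot be compared.

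LPS, a cell wall component of Gram-negative bacteria, is bound by TLR4. Through the adaptor MyD88 the receptor activates NF-kB and AP-1 factors, which drive inflammatory cytokines and chemokines, and through the adaptor TRIF it activates IRF3, which drives interferon beta. Secreted interferon then acts back on the cells: a complex that holds IRF9 binds the interferon-stimulated response element (ISRE) in the promoters of antiviral genes. IRF4 is a member of the IRF family that binds weakly alone and acts with ETS or BATF/AP-1 partners, and it is known for roles in dendritic cell subsets, in plasma cells and in alternative activation of macrophages. Activated dendritic cells raise costimulatory molecules and the migration receptor CCR7.

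After 24 h of LPS, 41 of 42 tested interferon-stimulated antiviral genes, 15 of 16 interferon-inducible GTPases, 21 of 30 maturation and migration genes and 14 of 25 chemokines rose in KO cells, against 10.3% of all 11258 genes tested. Macrophage markers and cell cycle genes held 6 of 23 and 10 of 43 members that fell, against 7.85% of all genes, and 3 and 2 that rose. With 1 array left out the counts that fell ran from 3 to 7 and from 2 to 17. Without KO unstimulated replicates 1 and 5 they were 9 and 1. A gene is said to rise, fall or be called where its adjusted p was under 0.05 (limma). The 10 largest rises were Saa3, Il6, Ifit1, Cxcl10, Cxcl3, Saa1, Ms4a4d, Cxcl1, Isg15 and Rsad2. The 10 largest falls were Mrc1, Cd93, Slc36a2, Slco2b1, Mamdc2, Bex1, Timp2, Arhgap15, Sort1 and Tcf7l2.

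The promoters of 6 of these genes are shown as examples that carry the letters of an ISRE or of an NF-kB site. Among the other 4 of the largest rises, Saa3 and Rsad2 have 1 ISRE match each and Saa1 and Ms4a4d have no match to either, and of the largest falls Arhgap15 has 1 ISRE match at 1 of its 2 listed starts. They are the RefSeq sequences of GRCm38.p6 from 250 bases before to 50 bases after the annotated start, 5′ to 3′ on the gene's own strand. Capitals mark matches, on either strand, to the ISRE letters (GAAA, any 2 bases, GAAA) or to the NF-kB letters (GGG, any 2 bases, TTTCC). Ifit1 (chr19:34640639-34640938, plus strand) and Cxcl10 (chr5:92348840-92349139, minus strand) have 2 and 1 ISRE matches, Isg15 (chr4:156200769-156201068, minus strand) has 3 that overlap, Il6 (chr5:30012864-30013163, plus strand) and Cxcl3 (chr5:90785851-90786150, plus strand) have 1 NF-kB match each, and Cxcl1 (chr5:90890995-90891294, plus strand) has 2.
Ifit1: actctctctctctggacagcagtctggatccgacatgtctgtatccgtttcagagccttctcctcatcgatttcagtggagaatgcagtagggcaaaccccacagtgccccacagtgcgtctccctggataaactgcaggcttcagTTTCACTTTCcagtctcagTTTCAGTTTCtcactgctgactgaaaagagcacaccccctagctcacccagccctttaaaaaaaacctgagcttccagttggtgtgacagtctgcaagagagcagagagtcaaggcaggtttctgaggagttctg
Isg15: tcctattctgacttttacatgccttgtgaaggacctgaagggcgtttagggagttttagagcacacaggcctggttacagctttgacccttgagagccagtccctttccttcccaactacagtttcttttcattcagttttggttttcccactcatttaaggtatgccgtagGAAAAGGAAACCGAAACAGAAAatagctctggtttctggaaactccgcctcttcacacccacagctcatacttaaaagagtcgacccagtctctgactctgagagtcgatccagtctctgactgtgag
Cxcl10: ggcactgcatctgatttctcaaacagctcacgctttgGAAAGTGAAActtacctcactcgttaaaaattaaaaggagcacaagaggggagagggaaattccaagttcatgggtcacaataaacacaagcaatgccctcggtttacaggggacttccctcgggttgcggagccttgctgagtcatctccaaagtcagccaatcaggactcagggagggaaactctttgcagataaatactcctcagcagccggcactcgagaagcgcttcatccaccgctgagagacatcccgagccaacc
Il6: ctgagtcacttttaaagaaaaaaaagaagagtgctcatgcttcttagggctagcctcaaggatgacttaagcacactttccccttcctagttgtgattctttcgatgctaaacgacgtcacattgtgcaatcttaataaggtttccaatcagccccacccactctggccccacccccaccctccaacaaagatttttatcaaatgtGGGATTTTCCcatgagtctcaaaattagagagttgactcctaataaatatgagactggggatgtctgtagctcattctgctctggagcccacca
Cxcl1: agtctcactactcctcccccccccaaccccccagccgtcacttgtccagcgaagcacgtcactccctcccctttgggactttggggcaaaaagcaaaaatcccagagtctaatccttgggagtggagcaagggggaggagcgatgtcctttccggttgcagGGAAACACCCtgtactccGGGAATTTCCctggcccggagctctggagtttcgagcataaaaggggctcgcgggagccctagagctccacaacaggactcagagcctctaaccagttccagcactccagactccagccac
Cxcl3: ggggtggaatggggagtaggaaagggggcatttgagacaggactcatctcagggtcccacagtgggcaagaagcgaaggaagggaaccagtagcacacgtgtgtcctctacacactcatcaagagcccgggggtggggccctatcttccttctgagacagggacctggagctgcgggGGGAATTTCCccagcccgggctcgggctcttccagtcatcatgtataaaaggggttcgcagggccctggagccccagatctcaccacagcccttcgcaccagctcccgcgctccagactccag
Motif shares were counted per gene with a promoter, a gene counting if any of its listed starts matched. The ISRE letters were present in 58 of the 386 genes (15%) called higher with at least a 2-fold change. They were in 5 of the 169 (2.96%) called lower by as much, against 3.94% of the 9077 tested genes with a promoter. Shares of all 32851 promoters in the table are counted per start, so they are not like for like, and that of the ISRE letters was 3.44%. Of interferon-stimulated antiviral genes 16 of 31 (51.6%) held the ISRE letters, and of interferon-inducible GTPases 8 of 10. The NF-kB letters were in 18 of 386 (4.66%) and 2 of 169 (1.18%) of the genes called higher and lower, against 1.91% of tested genes and 1.63% of all promoters, and in 4 of 18 chemokines. The ETS-IRF composite letters (GGAA, any 2 bases, GAAA), which can overlap the ISRE letters, were in 6.48% of genes called higher and 5.33% of those called lower by at least 2-fold, against 2.93% of tested genes and 2.72% of all promoters. These shares describe letters in a window of 300 bases, not bound sites.

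The arrays of both groups fell into sets. KO LPS 24 h replicates 1, 2 and 3 correlated at 0.989 to 0.994 over genes and replicates 4 and 5 at 0.9845, whereas arrays of different sets correlated at 0.863 to 0.899. KO unstimulated replicates 2, 3 and 4 correlated at 0.988 to 0.990, while replicates 1 and 5 stood apart, at 0.951 with each other and 0.871 to 0.933 with the rest. Over 245 probes spotted at least 5 times, 2 arrays of the same KO LPS 24 h set still differed by 3.17 to 4.64 times the error of those spots, while over all genes they differed by 0.822 to 1.31 times the SD between repeated spots on the array where that SD was highest. They were kept as the separate samples their labels name, but neither value shows that close arrays hold separate RNA, and the labels do not say. When arrays correlating above 0.96 were averaged into 1 sample each, an alternative chosen after seeing the data, KO LPS 24 h came down to 2 samples and KO unstimulated to 3. The count of called genes was then 11, against 2042, with 1356 at an unadjusted p under 0.05, and 3 of 119 named called genes (Bex1, Zbp1 and Psmb8) kept their call. All 2042 genes kept their direction. That is no separate support, since the same arrays were averaged and the genes were chosen by their difference. Of the lists below, the antiviral and the MHC class I list then held 1 called member each and the others 0. No slide held both groups, so slide and treatment were linked only through other groups. KO LPS 24 h replicates 1 to 4 were the only arrays on their slide, and replicate 5 shared a slide with control unstimulated arrays. With slide as a fixed block every contrast with KO LPS 24 h therefore rested on replicate 5, linked to KO unstimulated only through control arrays. Values with that block, here and below, cannot tell a slide effect from the scatter of 1 array. With slide as a fixed block 75.1% of the 2042 genes kept their direction, and Cxcl10 and Rsad2 turned to -0.78 and -0.71. With that block the counts of members higher and lower were 9 and 3 for chemokines, 5 and 5 for maturation genes and 4 and 9 for feedback inhibitors. Median Cy5 signals of the 10 arrays were 112 to 128.5, and 48.5 to 56.8% of 41174 probes were well above background.

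**Figure D1:**
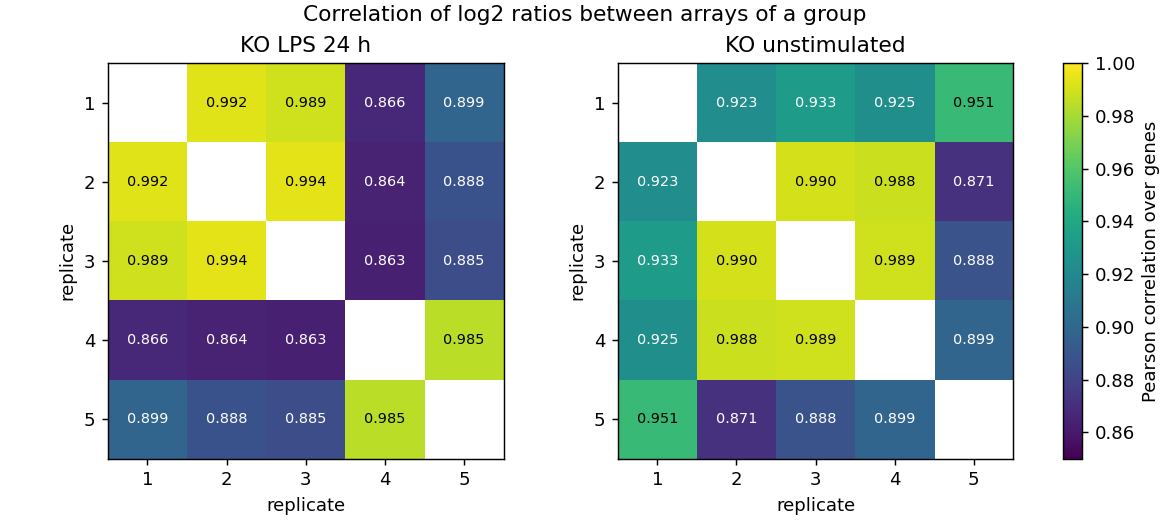
Pearson correlation of log2 ratios over genes between the 5 replicate arrays of KO LPS 24 h (left) and KO unstimulated (right); both axes are replicate numbers and colour and figure in a cell give the correlation. KO LPS 24 h replicates 1 to 3 and replicates 4 and 5 form 2 sets, and KO unstimulated replicates 1 and 5 stand apart from 2, 3 and 4.

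The targeted gene was checked first. Irf4 levels were -0.47, -0.06, -0.38, 0.62 and 0.14 in the 5 KO LPS 24 h arrays and -2.20, -0.85, -1.06, -0.84 and -2.51 in the 5 KO unstimulated arrays. Control arrays had 1.99, 2.68, 2.23, 1.86 and 1.95 after 24 h of LPS and 1.51, 1.16, 1.28, 1.79 and 1.32 unstimulated, so every KO array lay below every control array of its treatment. Where the probe lies relative to the deleted part was not given, so the residual signal is not a measure of undeleted cells. Within KO cells the signal was higher at 24 h by 1.46 ± 0.27 (log2 difference ± SE, adjusted p = 0.000302), and by 0.89 without KO unstimulated replicates 1 and 5, the lowest arrays. Of 24 dendritic cell identity markers on the array, 18 were well above background on all 5 KO LPS 24 h arrays and 18 on all 5 KO unstimulated arrays. Among them were Itgax, which encodes CD11c, Zbtb46, Cd74 and the MHC class II genes H2-Aa, H2-Ab1 and H2-Eb1. The 20 markers tested had to pass that flag on all arrays of at least 1 group. Of all 11258 genes tested, 9678 passed it on all arrays of both KO groups, so these counts do not set the list apart. Flt3, the receptor of a dendritic cell growth factor, Cd209a and Btla were among the listed markers that did not enter the test, since no group passed the flag on all its arrays. In bulk RNA, here and below, fewer cells of a type and less RNA per cell cannot be told apart.

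Of 11258 genes tested, 2042 (18.1%) were called at an adjusted p under 0.05 (limma, 1 mean per group fitted to all 30 arrays, Benjamini-Hochberg over the genes). Of these 1158 (10.3%) were higher and 884 (7.85%) lower at 24 h, and 728 (6.47%) differed at least 2-fold, 512 (4.55%) up and 216 (1.92%) down. The median difference over all genes was 0.02 on the log2 scale. The share of calls that were higher was 56.7%, against 67.9% with median centring in place of loess (745 of 1098) and 43.8% with Cy5 alone (1042 of 2378). For 1362 genes (12.1%) all 5 KO LPS 24 h arrays lay above all 5 KO unstimulated arrays, and for 1022 (9.08%) all lay below.

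The largest rise was that of Saa3. Saa3, an acute phase apolipoprotein made by macrophages as well as liver, had levels of 4.42, 4.66, 4.65, 3.44 and 3.18 in KO LPS 24 h arrays and -3.36, -2.58, -2.53, -2.60 and -3.01 in KO unstimulated arrays. The groups did not overlap, and replicates 4 and 5 were the lowest stimulated arrays. The difference was 6.89 ± 1.00 on the log2 scale (118-fold, adjusted p = 2.15e-05). Saa1 had levels of 4.60, 4.76, 4.65, 3.46 and 3.34 with LPS, against -1.90, -1.60, -1.69, -1.82 and -2.15 without, a difference of 6.00 ± 0.91 (adjusted p = 3.90e-05). The mean over all Saa1 probes moved by 3.03, which is less than the probe used here. Both genes have close relatives in the same cluster, so their signals may not be fully separate. Ms4a4d, a membrane protein of the MS4A family, had levels of 5.72, 5.73, 6.18, 5.30 and 5.11 with LPS, and no unstimulated array was well above background (-0.22 to -0.08). Its rise was at least 53.9-fold (adjusted p = 5.87e-06), and the mean over all its probes moved by 2.92 on the log2 scale.

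**Figure D2:**
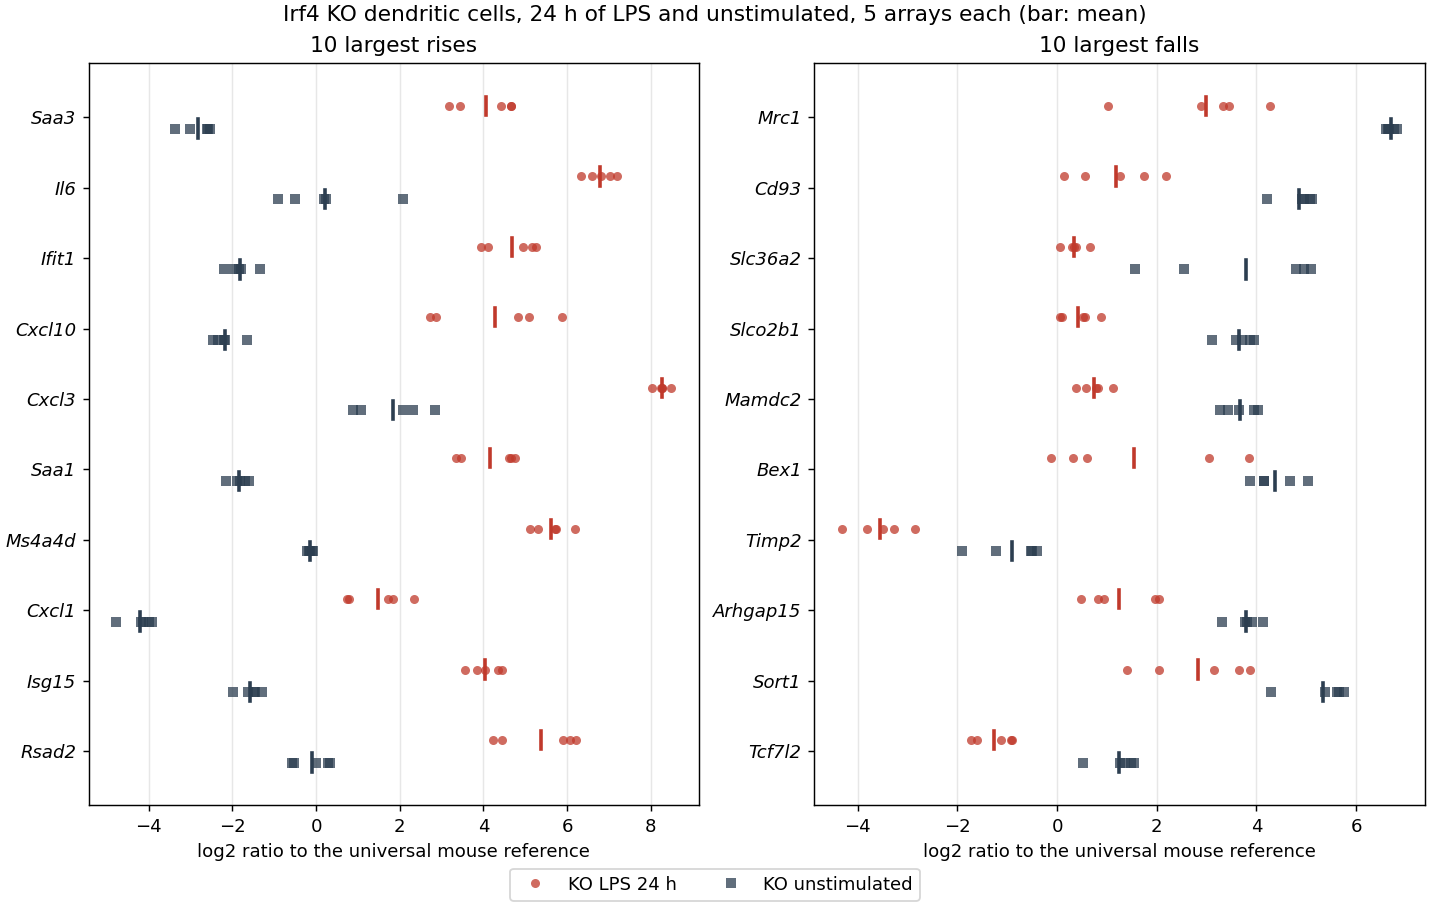
Log2 ratios to the universal reference (x axis) on each of the 5 KO LPS 24 h arrays (circles) and 5 KO unstimulated arrays (squares) for the 10 largest rises (left) and the 10 largest falls (right), with vertical bars at group means. The groups do not overlap for any of the 20 genes, as the choice of genes required, and Bex1, Mrc1 and Sort1 spread widely among stimulated arrays.

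Proinflammatory cytokines, the secreted proteins that recruit and activate other cells, moved in 1 direction: 10 of 21 tested members rose and 0 fell, with a median difference of 1.32. Il6, which drives acute phase and T helper responses, had levels of 6.33, 6.60, 6.80, 7.19 and 7.02 in KO LPS 24 h arrays. Its levels in KO unstimulated arrays were -0.91, 0.20, 0.24, 2.07 and -0.51, so the wider spread lay among unstimulated cells, with replicate 4 the highest. The difference was 6.57 ± 1.04 (95.2-fold, adjusted p = 6.08e-05). Il12a, the p35 subunit of interleukin 12 and of interleukin 35, was well above background on all 5 stimulated arrays and on 1 unstimulated array, with levels of 3.11 to 3.75 against -0.17 to 0.01 (difference 3.49 ± 0.35, adjusted p = 1.87e-07). Ebi3, the partner subunit in interleukins 27 and 35, rose by 1.48 ± 0.25 (adjusted p = 0.000101). The other 7 that rose, Il1b, Tnf, Il15, Il1a, Csf1, Osm and Tnfsf9, had differences of 0.86 to 4.35. The interleukin 23 subunit Il23a (0.33, adjusted p = 0.248) and Ifnb1 (0.91, adjusted p = 0.264), interferon beta itself, were not called at 24 h, and neither was well above background on any unstimulated array.

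Of 25 chemokines 14 rose and 1 fell, with a median of 1.27. Cxcl3 and Cxcl1, ligands of the neutrophil receptor CXCR2, rose by 6.42 ± 0.65 and 5.69 ± 0.88 (adjusted p = 2.03e-07 and 4.54e-05). Cxcl3 levels were 8.26, 8.49, 8.28, 8.25 and 8.02 in KO LPS 24 h arrays and 2.31, 1.08, 0.88, 2.09 and 2.85 in KO unstimulated arrays. The stimulated arrays lay close together, while the unstimulated ones spread more widely, with replicates 2 and 3 lowest. Cxcl1 levels were 1.72, 1.84, 2.34, 0.75 and 0.80 with LPS and -4.19, -4.77, -3.92, -4.14 and -3.99 without. Cxcl10, which attracts T cells through CXCR3, had levels of 4.82, 5.08, 5.88, 2.87 and 2.73 with LPS, and was not well above background on any KO unstimulated array, where values were -2.46 to -1.66, so the rise was at least 87.1-fold (adjusted p = 0.000411). Cxcl16, a membrane-bound ligand of CXCR6, rose by 1.27 ± 0.19 (adjusted p = 3.19e-05), and by 0.55 with the scanner software's own ratios and 3.64 with Cy5 alone. Cxcl2, Ccl5, Ccl2, Ccl7, Ccl4, Cxcl5, Ccl3, Ccl22, Ccl17 and Pf4 were the other members that rose. Cxcl14 was the member called lower (-0.98 ± 0.29, adjusted p = 0.0204); its groups overlapped, and the call ended without any 1 of KO unstimulated replicates 2, 3 and 4 (adjusted p up to 0.0781).

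Among 24 receptors for chemokines and lipid mediators 5 rose and 1 fell (median 0.22), against 10.3% and 7.85% of all genes. Gpr84, a receptor for medium-chain fatty acids, had levels of 4.29, 4.61, 4.80, 3.57 and 3.55 in KO LPS 24 h arrays and 0.81, 0.88, 0.64, 1.01 and 2.11 in KO unstimulated arrays, where replicate 5 was high, and rose by 3.07 ± 0.43 (adjusted p = 1.54e-05). The formyl peptide receptors Fpr2 and Fpr1, which sense bacterial peptides, rose by 3.51 ± 0.52 and 2.19 ± 0.35 (adjusted p = 3.23e-05 and 7.56e-05). With the scanner software's ratios these were 0.70 and 0.10 and neither was called. Ccr7, which guides dendritic cells to lymph nodes, rose by 1.84 ± 0.51 (adjusted p = 0.013), and Ccrl2, a chemerin-binding receptor, by 2.59 ± 0.65 (adjusted p = 0.00627). Ccr2, the receptor for Ccl2 on monocyte-derived cells, fell: its levels were 0.44, 0.59, 0.34, 2.15 and 2.01 with LPS, against 1.20, 4.57, 4.08, 4.15 and 1.97 without (difference -2.09 ± 0.53, adjusted p = 0.00673). The groups overlapped, since KO unstimulated replicates 1 and 5 had levels as low as stimulated replicates 4 and 5, and with slide as a fixed block the difference turned to 0.25.

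Interferon-stimulated antiviral genes had the largest share of called members among the lists. Of 42 tested antiviral members 41 rose and 0 fell, with a median of 2.88. Pml, at 0.83 (adjusted p = 0.195), was the member not called. With slide as a fixed block 15 were called higher and 6 lower. Ifit1, which binds viral RNA that lacks host cap methylation, had levels of 4.94, 5.16, 5.26, 4.11 and 3.94 in KO LPS 24 h arrays and -2.20, -1.96, -1.33, -1.83 and -1.80 in KO unstimulated arrays, 2 of which were well above background (difference 6.51 ± 1.00, 91.2-fold, adjusted p = 4.42e-05). Isg15, a ubiquitin-like modifier, had levels of 4.04, 4.35, 4.44, 3.84 and 3.56 with LPS and -1.99, -1.46, -1.47, -1.28 and -1.63 without, and rose by 5.61 ± 0.81 (adjusted p = 2.17e-05). Rsad2, the antiviral enzyme viperin, rose by 5.47 ± 1.09 (adjusted p = 0.000713). Zbp1, a sensor of left-handed nucleic acid that can start necroptosis, rose by 3.91 ± 0.35 with an adjusted p of 4.75e-08, and Bst2 (tetherin), which holds budding virus at the cell surface, by 3.56 ± 0.40, adjusted p 7.06e-07. Ifi35 rose by 2.43 ± 0.33 (adjusted p = 9.08e-06). For each of these genes the groups did not overlap.

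Of 16 interferon-inducible GTPases, which attack membranes around intracellular pathogens, 15 rose and 0 fell (median 3.16), Irgq being the exception at -0.15. With slide as a fixed block 2 of them were called higher and 5 lower. Gbp2 levels were 4.21, 4.34, 4.11, 3.99 and 3.84 in KO LPS 24 h arrays and -0.02, 1.10, 0.99, 1.11 and -0.02 in KO unstimulated arrays, a difference of 3.46 ± 0.33 (adjusted p = 9.35e-08). KO unstimulated replicates 1 and 5 were the low ones. Gbp4 was not well above background on any KO unstimulated array and rose at least 10.8-fold (adjusted p = 2.31e-05), and Tgtp1 rose by 4.71 ± 0.71 (adjusted p = 3.59e-05). Gbp and Irg genes lie in clusters of close relatives, so cross-hybridisation between members cannot be told apart here. Of 17 MHC class I presentation genes 13 rose and 2 fell, with a median of 1.55. The immunoproteasome subunits Psmb8 and Psmb9 and the proteasome activator Psme1, which shape the peptides loaded on class I, rose by 2.00 ± 0.19, 2.29 ± 0.28 and 1.93 ± 0.19 (adjusted p = 9.35e-08, 2.26e-06 and 1.60e-07). The 2 that fell were Calr (-0.48 ± 0.16, adjusted p = 0.0422) and Pdia3 (-0.53 ± 0.18, adjusted p = 0.0427), chaperones of the endoplasmic reticulum. The call of Calr ended on leaving out any 1 of 7 of the 10 arrays (KO LPS 24 h replicates 1 to 4 and KO unstimulated replicates 1, 2 and 5), with an adjusted p of up to 0.124, and without any of these 7 but KO unstimulated replicate 2 neither gene was called.

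**Figure D3:**
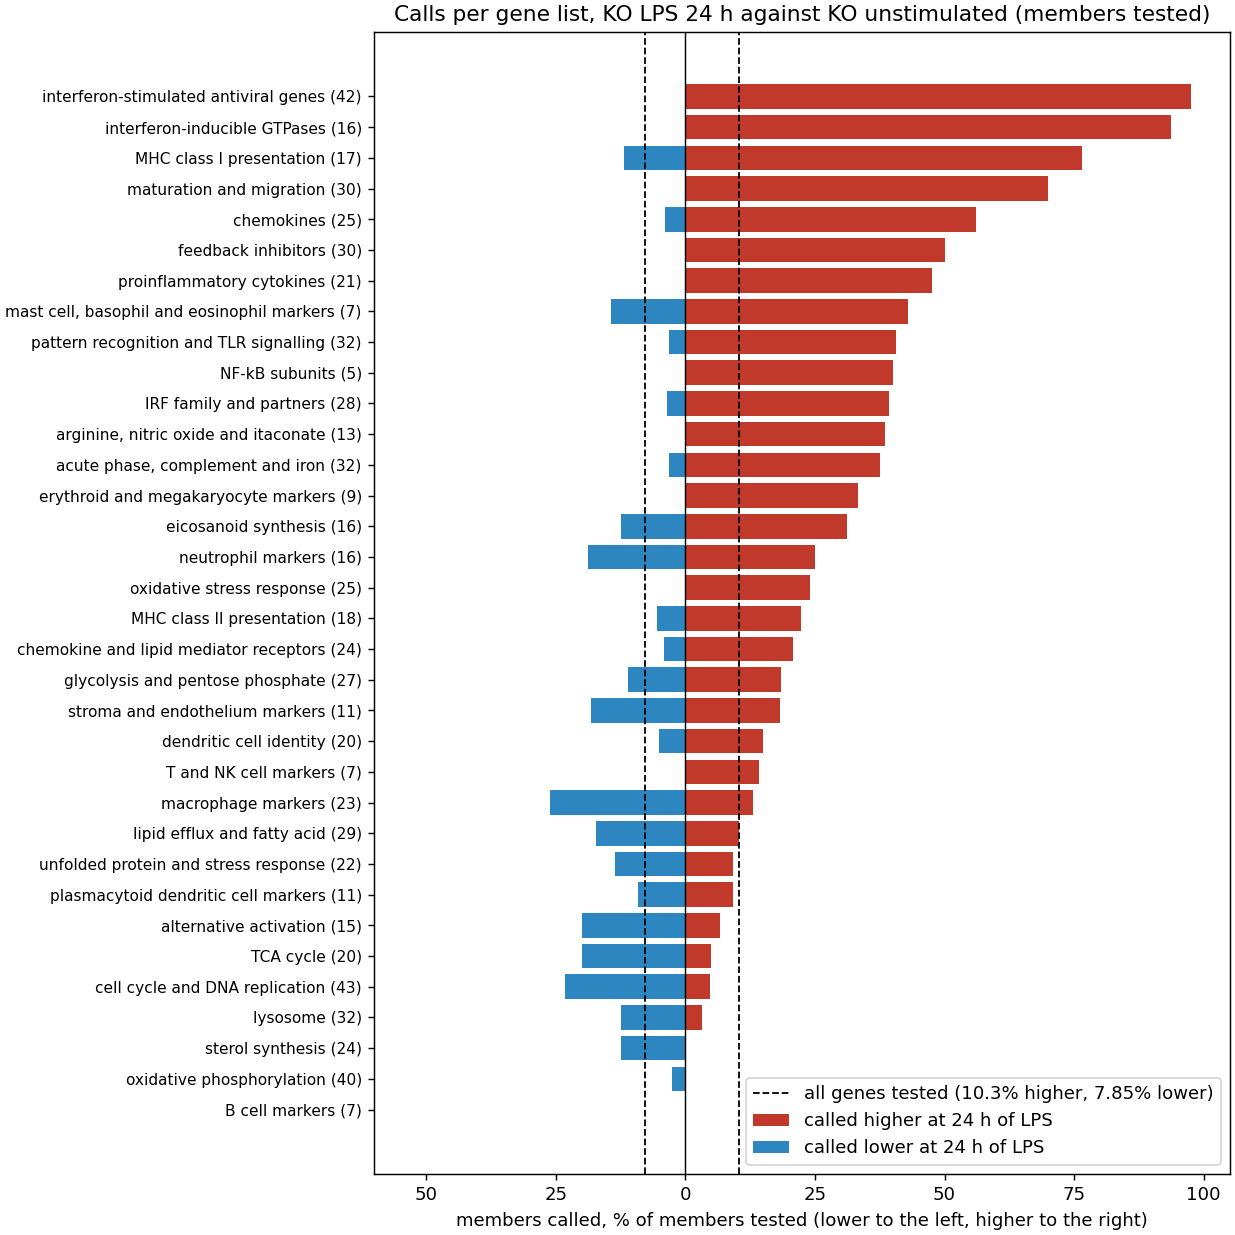
Share of tested members of each gene list called higher (bars to the right) or lower (bars to the left) in KO LPS 24 h against KO unstimulated, as % of the members tested (number in brackets); dashed lines mark 10.3% and 7.85%, the shares of all 11258 genes called higher and lower. Interferon-stimulated genes, interferon-inducible GTPases, MHC class I and maturation genes have the longest bars to the right, and macrophage markers and cell cycle genes the longest to the left. Without KO unstimulated replicates 1 and 5 only 1 cell cycle gene was called lower.

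Of the transcription factors of the IRF family and their partners, 11 of 28 rose and 1 fell (median 0.27). Irf7, the amplifier of type I interferon production, rose by 5.42 ± 0.80 and Irf9, the DNA-binding part of the ISRE complex, by 1.74 ± 0.24 (adjusted p = 3.09e-05 and 1.14e-05). Other members that rose, beside Irf4, included Stat2, Irf1, Batf2, Stat4, Batf, Stat5a and Irf5, with differences of 0.90 to 2.94. Irf8 (0.15, adjusted p = 0.757) and Batf3 (0.14, adjusted p = 0.766), both required for the CD8-type dendritic cell lineage, were not called. Jun, an AP-1 subunit, fell by 1.00 ± 0.32 (adjusted p = 0.0299). Its call ended without any 1 of KO LPS 24 h replicates 4 and 5 and KO unstimulated replicates 1 and 5 (adjusted p up to 0.115).

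Of the NF-kB subunits, Nfkb2 and Relb, the pair of the non-canonical pathway, rose by 1.48 ± 0.39 and 1.22 ± 0.29 (adjusted p = 0.00792 and 0.00404), while Nfkb1 (0.76 ± 0.31, adjusted p = 0.0955), Rel (0.54 ± 0.30, adjusted p = 0.219) and Rela (0.22 ± 0.45, adjusted p = 0.779) were not called. Rela levels were 0.70, 0.91, 0.95, -0.73 and -0.54 with LPS, against 0.16, 0.39, 0.18, 0.08 and -0.59 without, so stimulated replicates 1 to 3 lay above all unstimulated arrays and replicate 4 below them. Nfkb1 passed the test in 5 alternatives, namely on the compared arrays alone (adjusted p = 0.00258), under the replicate block, without the 2 later-slide control arrays, with the 2 sets of replicates (1 to 3, 4 and 5) as a factor, and inside the first of these sets. Rel passed it in 3, inside the second set (adjusted p = 0.00405), with the sets as a factor, and with slide as a fixed block. With slide as a fixed block Nfkb2, Relb, Rela and Nfkb1 turned to -2.29, -1.96, -4.89 and -1.50. Genes that limit the response rose in 15 of 30 cases and fell in 0 (median 0.90). Nfkbie, an inhibitor that holds NF-kB in the cytoplasm, rose by 2.21 ± 0.21, with levels of 1.99 to 2.70 against -0.06 to 0.77 (adjusted p = 9.35e-08). Irak3, a kinase-dead brake on MyD88 signalling, rose by 2.13 ± 0.25 (adjusted p = 1.59e-06). Tnfaip3, the deubiquitinase A20, rose by 2.42 ± 0.46 (adjusted p = 0.000405), turning to -1.29 with slide as a fixed block.

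Receptors and adaptors of pattern recognition rose in 13 of 32 cases and fell in 1 (median 0.65). Clec4e (Mincle), a receptor for mycobacterial glycolipid, had levels of 4.81, 4.98, 5.01, 4.42 and 4.36 in KO LPS 24 h arrays and 1.08, -0.99, -0.91, -0.56 and 2.02 in KO unstimulated arrays. KO unstimulated replicates 1 and 5 were the high ones there, and the difference was 4.59 ± 0.76 (adjusted p = 0.000104). Tlr2, a receptor for bacterial lipopeptide, rose by 2.30 ± 0.32 and Casp1, the protease of the inflammasome, by 1.90 ± 0.32 (adjusted p = 1.21e-05 and 0.000128). Tlr4 itself differed by 0.12 (adjusted p = 0.78) and its signalling kinase Irak4 fell by 0.57 ± 0.12 (adjusted p = 0.00124).

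Of 30 genes of dendritic cell maturation and migration 21 rose and 0 fell (median 1.30). Cd86, a costimulatory ligand for CD28, had levels of 3.47, 3.51, 3.75, 4.94 and 4.54 in KO LPS 24 h arrays and 0.31, 0.92, 1.06, 1.61 and 0.78 in KO unstimulated arrays, and rose by 3.11 ± 0.47 (adjusted p = 3.45e-05). Here stimulated replicates 4 and 5 were the high ones. Traf1, a signalling adaptor of TNF receptors, rose by 3.51 ± 0.38 and Icam1, an adhesion molecule for T cells, by 1.63 ± 0.19 (adjusted p = 6.75e-07 and 1.39e-06). Of 18 MHC class II presentation genes 4 rose and 1 fell, or 5 called, against 18.1% of all genes. H2-Oa, part of the H2-O inhibitor of peptide loading, rose by 2.00 ± 0.30 (adjusted p = 3.74e-05). The classical chains H2-Eb1 and H2-Aa rose by 1.02 ± 0.28 and 1.01 ± 0.28 (adjusted p = 0.0103 and 0.013), and both stood lowest in KO unstimulated replicate 1. Without that replicate 2 of the list were called higher, and H2-Aa moved to 0.75 and was not called (adjusted p = 0.0593). Marchf1, whose product turns class II over, rose by 0.96 and the tetraspanin Cd9 fell by 1.11 ± 0.26 (adjusted p = 0.00363). Ciita, the class II transactivator, differed by 0.17 (adjusted p = 0.769).

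Acute phase, complement and iron genes rose in 12 of 32 cases and fell in 1 (median 1.05). Saa3 and Saa1 are among them. Lcn2, which withholds iron from bacteria by binding siderophores, had levels of 3.72, 4.03, 3.89, 3.12 and 3.14 in KO LPS 24 h arrays and -1.21, -0.78, -0.68, -0.76 and -0.63 in KO unstimulated arrays, a difference of 4.39 ± 0.48 (adjusted p = 5.92e-07). Serpinb2, an inhibitor of plasminogen activation, rose by 4.40 ± 0.51 and Cfb, factor B of the alternative complement pathway, by 2.68 ± 0.37 (adjusted p = 1.35e-06 and 1.04e-05). C1qb, a chain of the first classical complement component, fell by 1.63 ± 0.54 (adjusted p = 0.0365). Its levels were 1.10, 1.26, 1.40, 0.92 and 1.07 with LPS, against 1.43, 4.03, 3.61, 3.61 and 1.24 without, where replicates 1 and 5 were as low as stimulated cells, and the call ended on leaving out any 1 of 8 of the 10 arrays, all but KO unstimulated replicates 1 and 5 (adjusted p up to 0.112).

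Among 16 genes of eicosanoid and histamine synthesis 5 rose and 2 fell. Ptgs2, the inducible cyclooxygenase, was not well above background on any KO unstimulated array and rose at least 12-fold (adjusted p = 0.000399), and Ptges, the synthase that makes prostaglandin E2 from its product, rose by 3.74 ± 0.59 (adjusted p = 6.34e-05). Hdc, which makes histamine, rose by 4.43 ± 0.59 (adjusted p = 8.11e-06). Ptgs1, the constitutive cyclooxygenase, fell by 1.86 ± 0.53 (adjusted p = 0.0148), with levels of -2.45 to -1.35 against -0.93 to 0.36. The other member that fell, Tbxas1 of thromboxane synthesis (-0.26), was not called without any 1 of KO LPS 24 h replicates 1 and 3 and KO unstimulated replicates 2 to 5. Arginine, nitric oxide and itaconate genes rose in 5 of 13 cases. Ass1, which regenerates arginine, rose by 1.44 ± 0.25 and Gch1, which makes the cofactor of nitric oxide synthase, by 1.98 ± 0.38 (adjusted p = 0.000177 and 0.000539). Nos2, the inducible nitric oxide synthase, had a difference of 1.69 that was not called (adjusted p = 0.119), and Arg1 one of -0.04 (adjusted p = 0.886).

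The largest falls were those of Mrc1 and Cd93. Mrc1, the mannose receptor of endocytosis and a marker of alternative activation, had levels of 4.27, 3.45, 2.89, 1.03 and 3.33 in KO LPS 24 h arrays and 6.77, 6.82, 6.60, 6.63 and 6.67 in KO unstimulated arrays. The unstimulated arrays lay close together while the stimulated arrays spread widely, with replicate 4 lowest. The difference was -3.70 ± 0.71 (adjusted p = 0.000522), and -2.59 with the scanner software's ratios (adjusted p = 0.0513). Cd93, a C-type lectin-like receptor, had levels of 2.19, 1.27, 0.56, 0.14 and 1.74 with LPS and 5.12, 4.96, 4.91, 5.08 and 4.22 without (difference -3.68 ± 0.71, adjusted p = 0.000497). Slco2b1, an organic anion transporter, had levels of 0.53, 0.10, 0.06, 0.55 and 0.88 with LPS and 3.95, 3.72, 3.11, 3.60 and 3.87 without, and 3 of the stimulated arrays were well above background (difference -3.22 ± 0.46, adjusted p = 1.86e-05). Slc36a2, a proton-coupled amino acid transporter, fell to 0.06 to 0.66 with LPS, against 2.55, 4.95, 4.79, 5.09 and 1.56 without, with replicates 1 and 5 the low ones (difference -3.44 ± 0.78, adjusted p = 0.00256).

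Mamdc2 fell by 2.92 ± 0.47 and Bex1 by 2.84 ± 0.60 (adjusted p = 6.73e-05 and 0.00133). Bex1 levels were 3.05, 0.60, 0.32, -0.12 and 3.84 with LPS and 4.68, 4.14, 3.87, 4.15 and 5.03 without, so the stimulated arrays were wide apart, and replicate 5 came close to the lowest unstimulated array. Timp2, an inhibitor of matrix metalloproteinases, fell by 2.64 ± 0.50, and Arhgap15, a GTPase-activating protein for Rac, by 2.54 ± 0.33 (adjusted p = 0.000453 and 6.13e-06). Sort1, a sorting receptor of the secretory pathway, fell by 2.52 ± 0.60 and Tcf7l2, a transcription factor of Wnt signalling, by 2.49 ± 0.32 (adjusted p = 0.00394 and 5.94e-06). Averaged over all probes of each gene these last 2 had differences of -1.26 and -1.24. Among alternative activation genes 3 of 15 fell and 1 rose, against 7.85% and 10.3% of all genes. The 2 beside Mrc1 were Chil3, at -0.57 ± 0.17, and Rnase2a, at -0.57 ± 0.18 (adjusted p = 0.0195 and 0.0244), and the call of each ended without KO unstimulated replicate 4 (adjusted p up to 0.0574 and 0.0876), as did that of Rnase2a without KO LPS 24 h replicate 3 or KO unstimulated replicate 5. With KO unstimulated replicate 1 left out, 5 members of the list were called lower. Chil3 also turned to 0.05 with Cy5 alone. Il13ra1, a receptor chain for interleukins 4 and 13, rose by 1.80 ± 0.34 (adjusted p = 0.000405).

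Metabolic lists are given beside the 10.3% of all genes called higher and the 7.85% called lower. In glycolysis and the pentose phosphate pathway 5 of 27 rose and 3 fell, and the count that rose was 1 without KO unstimulated replicate 1 and 3 without any 1 of KO LPS 24 h replicates 1 to 3 and KO unstimulated replicate 5. Pgk1, a glycolytic kinase, rose by 0.85 ± 0.16 and Taldo1, of the pentose phosphate pathway, fell by 0.82 ± 0.20 (adjusted p = 0.000397 and 0.00388). In the tricarboxylic acid cycle 4 of 20 fell and 1 rose. The isocitrate dehydrogenases Idh1, Idh2 and Idh3g fell by 1.41 ± 0.29, 0.84 ± 0.17 and 0.83 ± 0.19 (adjusted p = 0.000978, 0.000781 and 0.00273), Idh1 turning to 0.52 with slide as a fixed block. Of 40 respiratory chain and ATP synthase subunits only Ndufs1, of complex I, was called (-0.68 ± 0.13, adjusted p = 0.000401). In sterol synthesis 3 of 24 fell, Dhcr7, the last enzyme of the cholesterol pathway, by 1.86 ± 0.41 (adjusted p = 0.0019). In lipid handling 3 of 29 rose and 5 fell, but 2 fell without any 1 of KO LPS 24 h replicates 1 to 3 and KO unstimulated replicates 1 and 4, and 3 without KO unstimulated replicate 3. Dgat2, which makes triglyceride, rose by 4.11 ± 0.52, with levels of 2.88, 3.05, 2.98, 0.99 and 1.21 against -1.72, -2.42, -2.21, -2.17 and -0.91 (adjusted p = 3.60e-06). Pparg, a nuclear receptor of lipid storage, and Lipa, the lysosomal acid lipase, fell by 1.81 ± 0.30 and 1.60 ± 0.39 (adjusted p = 9.53e-05 and 0.00507).

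Oxidative stress genes rose in 6 of 25 cases, against 10.3% of all genes. Among them were Sod2, the mitochondrial superoxide dismutase, up by 2.86 ± 0.57, and Prdx5, a peroxiredoxin, up by 2.05 ± 0.38 (adjusted p = 0.000697 and 0.000387). Sod2 levels were 3.63, 3.92, 3.98, 1.81 and 1.79 with LPS and 0.14, 0.24, 0.43, 0.02 and 0.00 without, so stimulated replicates 4 and 5 lay between the unstimulated arrays and replicates 1 to 3, and the difference turned to -1.40 with slide as a fixed block. Of the unfolded protein response 2 of 22 rose, against 10.3% of all genes, a share that does not set the list apart. The 2 that rose were Ddit4 and Ddit3, which encodes the stress factor CHOP (0.88 ± 0.23, adjusted p = 0.00692). Dnajc3, an inhibitor of stress kinases, was 1 of the 3 that fell (-0.73 ± 0.11, adjusted p = 3.59e-05), and 1 fell without KO unstimulated replicate 1 or 5. Of 32 lysosome genes 4 fell, 2 without KO LPS 24 h replicate 4, and 1 rose, so that 5 were called, against 18.1% of all genes. Atp6v1b2, of the proton pump, and Asah1, acid ceramidase, fell by 0.65 ± 0.10 and 0.43 ± 0.12 (adjusted p = 4.05e-05 and 0.012), and Npc2, a cholesterol carrier, rose by 1.54 ± 0.32 (adjusted p = 0.00111).

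Of 43 cell cycle genes 10 fell and 2 rose (median -0.60). Cdc20, an activator of the anaphase complex, had levels of -3.40, -3.80, -4.03, -3.68 and -3.58 in KO LPS 24 h arrays and -0.98, -2.98, -2.64, -2.87 and -0.75 in KO unstimulated arrays, where replicates 1 and 5 were the high ones (difference -1.65 ± 0.43, adjusted p = 0.00772). The count that fell was 2 without KO unstimulated replicate 1 and 2 without replicate 5, 3 or 4 without any 1 of KO LPS 24 h replicates 2 to 5, and 17 without KO unstimulated replicate 2. Without both KO unstimulated replicates 1 and 5 it was 1. Lig1, a DNA ligase, fell by 1.00 ± 0.21, and Ccnd2, cyclin D2, rose by 2.60 ± 0.41 (adjusted p = 0.00141 and 5.07e-05).

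Markers of the cell types that the cultures can hold are given beside the 18.1% of all genes called. For dendritic cell identity markers the share called, 4 of 20, was near that of all genes. Of dendritic cell identity markers 3 of 20 rose and 1 fell, with an array mean over the list of 1.91 to 2.07 in KO LPS 24 h and 1.60 to 2.03 in KO unstimulated. Zbtb46, a transcription factor of conventional dendritic cells, rose by 0.87 ± 0.24 (adjusted p = 0.0114), and Clec9a, a receptor for dead cells on their cross-presenting subset, fell by 1.09 ± 0.15 (adjusted p = 1.76e-05). Of macrophage markers 6 of 23 fell and 3 rose, with list means of 1.47 to 2.57 against 1.93 to 2.89. Selenop, a selenium carrier, and Trem2, a lipid receptor, fell by 1.72 ± 0.33 and 1.08 ± 0.24 (adjusted p = 0.000471 and 0.00218), as did Mrc1, C1qb and Spp1 among others. Without KO LPS 24 h replicate 4 the list had 3 lower and 5 higher, without KO LPS 24 h replicate 5 it had 5 higher, and without KO LPS 24 h replicate 1 the dendritic cell list had 5 higher. Fcgr1, the high-affinity IgG receptor, rose by 2.91 ± 0.49 (adjusted p = 0.000114), and Cd14 and Marco rose with it. The part of a change in macrophage share in any of these results was not tested.

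Neutrophil markers rose in 4 of 16 cases and fell in 3, with list means of 1.63 to 2.64 in KO LPS 24 h and 1.22 to 1.82 in KO unstimulated. Those that rose were Hdc, Lcn2, Camp and Csf3r, while the granule genes Mpo, Ltf, Ngp and Ctsg differed by -0.21 to 0.21 with no call, and Elane and Prtn3 did not enter the test. Chil3, given above among alternative activation genes, was 1 of the 3 that fell. Differences in the list ran from -1.23 to 4.43. The count that fell was 1 without any 1 of KO LPS 24 h replicates 2 to 4 and KO unstimulated replicates 2 and 3, and 0 without KO unstimulated replicate 4. No B cell marker of 7 tested was called, among them Jchain (-0.29 ± 0.19, adjusted p = 0.309) and Cd79b (0.28 ± 0.37, adjusted p = 0.644), and list means were -0.77 to -0.62 against -0.68 to -0.43. Of T and NK cell markers 1 of 7 was called, Klrd1, which was above background on 2 stimulated and 0 unstimulated arrays and was not called without KO LPS 24 h replicate 4 or 5 or KO unstimulated replicate 2 (adjusted p up to 0.0941). Of plasmacytoid dendritic cell markers the interferon-inducible Bst2 rose and Runx2 fell, Runx2 losing its call without any 1 of KO LPS 24 h replicates 4 and 5 and KO unstimulated replicates 1 to 4 (adjusted p up to 0.115), with 11 tested and means of 0.54 to 0.83 against 0.31 to 0.69. Of mast cell, basophil and eosinophil markers 3 of 7 rose (Hdc, Gata2 and Fcer1a) and Siglecf fell by 2.17 ± 0.40 (adjusted p = 0.000327), turning to 2.10 with slide as a fixed block, and without KO unstimulated replicate 1 only Hdc was called higher. Erythroid and megakaryocyte markers rose in 3 of 9 cases (Pf4, Car2 and Slc4a1), and in 1 without any 1 of KO LPS 24 h replicate 5 and KO unstimulated replicates 3 and 4. Stroma and endothelium markers rose in 2 of 11 (Pdgfrb and Dcn) and fell in 2 (Postn and Vwf), or in 1 without any 1 of KO LPS 24 h replicates 3 to 5 and KO unstimulated replicates 1 to 4. The list means of erythroid and stroma markers were 0.56 to 1.19 against 0.28 to 0.57, and -2.28 to -1.47 against -2.19 to -1.80.

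The second comparison asked which levels at 24 h of LPS differed from those at 6 h in KO cells. It called 872 genes (7.75%), 399 (3.54%) higher and 473 (4.20%) lower at 24 h, and 2020 with the replicate number as a block. The replicates of these 2 groups deviated together, as the processing section describes. Even so, the SE, adjusted p and calls given for this comparison come from the fit without that block. The block kept all 872 calls and added others, so a gene given as not called may be called with it. When arrays lying together were averaged, 0 genes were called and 385 had an unadjusted p under 0.05, and the count was 563 or 492 without KO LPS 6 h replicate 2 or 3. No slide held both KO LPS 24 h and KO LPS 6 h arrays. With slide as a fixed block 79.5% of the 872 genes kept their direction, in a fit where the contrast rested on KO LPS 24 h replicate 5. This comparison shares the KO LPS 24 h arrays with the first one, so the 2 sets of values are not independent.

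The genes higher at 24 h than at 6 h included 2 members of the Ly6 family of lipid-anchored surface proteins. Ly6f levels were -0.51, -0.22, -0.49, -0.34 and -0.21 in unstimulated cells, 0.02, 0.20, 0.03, 0.94 and 0.37 after 6 h and 2.61, 3.06, 2.63, 3.23 and 3.13 after 24 h, and no unstimulated array was well above background. The 24 h arrays lay above all others, by 2.62 ± 0.45 over 6 h (adjusted p = 0.000496). Ly6c1 was higher at 24 h than at 6 h by 1.95 ± 0.39 (adjusted p = 0.00249). Ly6 genes are close relatives and their probes may share signal. Serf1 was higher by 2.44 ± 0.40, Susd2, a membrane protein, by 1.97 ± 0.34 and Cyp1b1, an oxidising enzyme of lipids and xenobiotics, by 1.93 ± 0.44 (adjusted p = 0.000404, 0.00065 and 0.00608). Sdc1, the proteoglycan syndecan 1, had levels of -2.02, 0.09, -0.35, -0.03 and -1.68 in unstimulated cells, -1.32, -1.37, -1.62, -1.23 and -1.25 after 6 h and 0.50, 0.76, 0.67, 0.67 and 0.48 after 24 h. The 6 h arrays overlapped the unstimulated ones, where replicates 1 and 5 were low, and the 24 h arrays were above both (24 h against 6 h 1.97 ± 0.35, adjusted p = 0.000892).

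Genes lower at 24 h than at 6 h were led by Cxcl10, whose levels were 8.46, 8.72, 9.28, 7.79 and 7.32 after 6 h and 4.82, 5.08, 5.88, 2.87 and 2.73 after 24 h, all above the unstimulated arrays given earlier. The difference of -4.04 ± 1.21 had an adjusted p of 0.0379 and lost its call on leaving out any 1 of 7 of the 10 arrays (KO LPS 24 h replicates 1, 2, 4 and 5 and KO LPS 6 h replicates 1 to 3, adjusted p up to 0.101). Fbp1, the gluconeogenic fructose bisphosphatase, had levels of 1.31, 6.19, 5.98, 6.56 and 4.30 in unstimulated cells, 5.91, 5.99, 5.85, 6.97 and 6.83 after 6 h and 1.45, 1.63, 1.13, 3.97 and 3.69 after 24 h. Its 24 h arrays lay below every 6 h array (-3.94 ± 0.68, adjusted p = 0.000603) but overlapped the unstimulated ones, where replicate 1 was low. Edn1, the vasoconstrictor endothelin 1, had levels of -1.31, -1.31, -1.20, -0.92 and -0.15, then 3.73, 3.93, 4.32, 4.15 and 3.70 at 6 h and 0.10, 0.17, 0.61, 1.18 and 1.24 at 24 h, so the 24 h arrays lay below the 6 h arrays and above the unstimulated ones (-3.31 ± 0.59, adjusted p = 0.000926). Calhm6, a channel-forming membrane protein, was lower at 24 h than at 6 h by a difference of -2.79 ± 0.62 and Lhx2, a homeodomain factor, by -2.67 ± 0.60 (adjusted p = 0.00519 and 0.00591). Mrc1 had a difference of -2.63 ± 0.71 (adjusted p = 0.0214), with no call left without KO LPS 24 h replicate 4 or any 1 of KO LPS 6 h replicates 1 to 3 (adjusted p up to 0.072), and was -2.17 with the scanner software's ratios (adjusted p = 0.157).

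**Figure D4:**
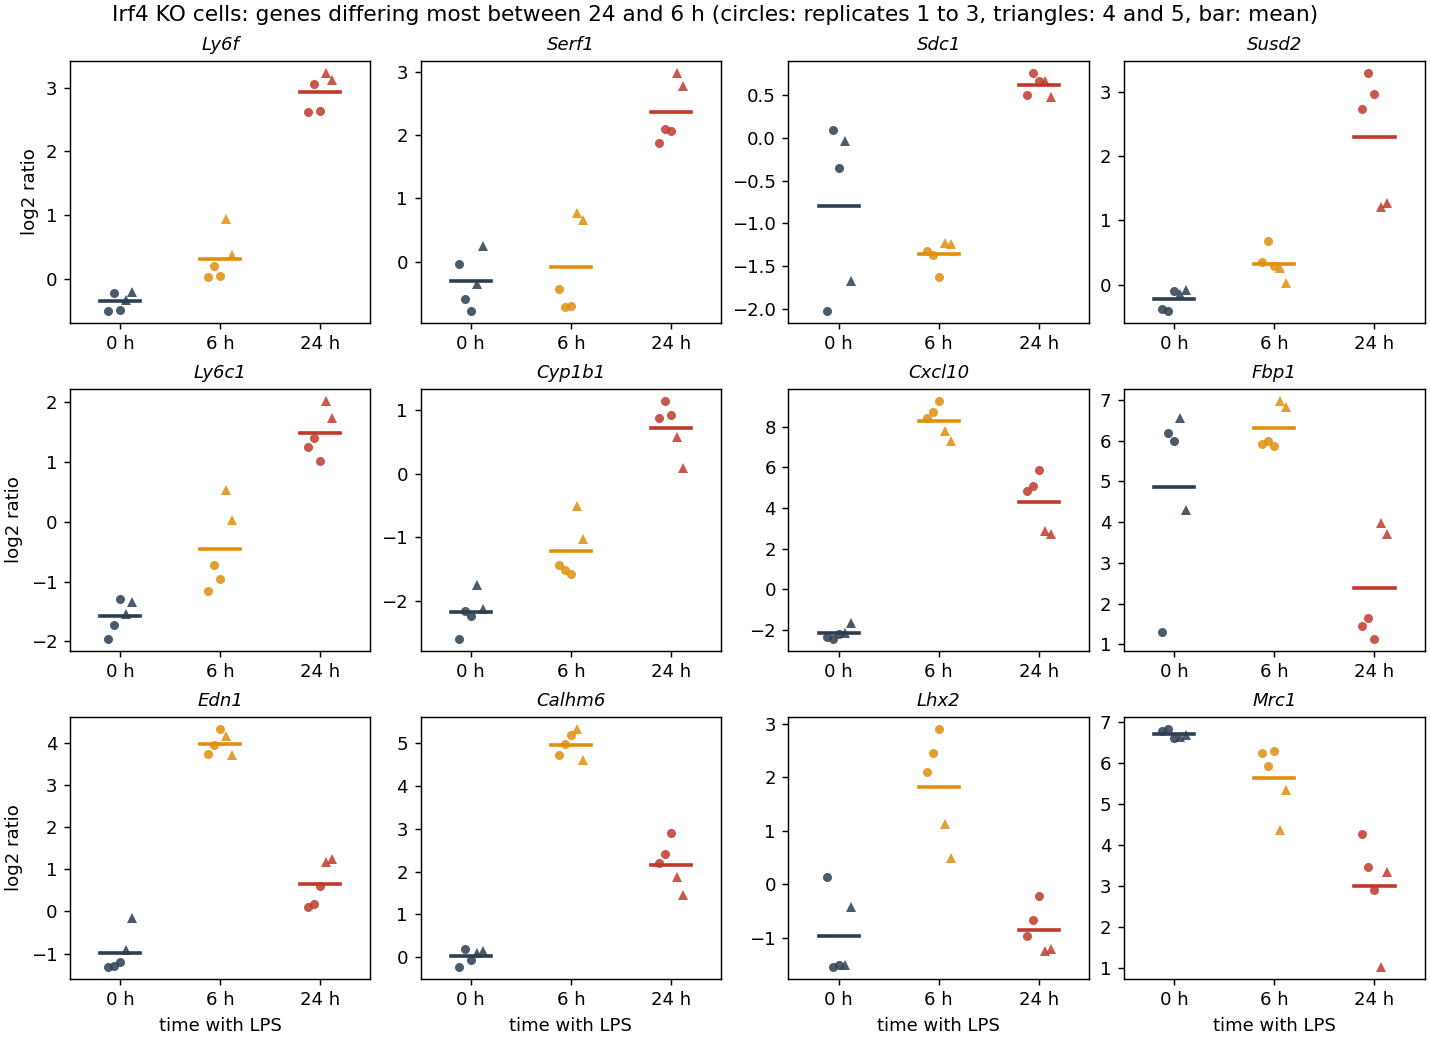
Log2 ratio to the reference (y axis, own scale per panel) of the 6 genes highest and 6 lowest at 24 h against 6 h of LPS, in KO cells at 0, 6 and 24 h (x axis), 1 point per array (circles for replicates 1 to 3, triangles for 4 and 5) and bars at group means. Ly6f, Serf1, Sdc1, Susd2, Ly6c1 and Cyp1b1 are highest at 24 h, Cxcl10, Fbp1, Edn1, Calhm6 and Lhx2 are highest at 6 h, and Mrc1 is lowest at 24 h.

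List counts for 24 h against 6 h are given beside the 4.20% of all genes called lower and the 3.54% called higher. Of the 21 cytokines 8 were lower at 24 h than at 6 h and 0 higher. These were Il23a, Il27, Il18, Il15, Csf2, Tnfsf15, Edn1 and Il19, with differences of -3.31 to -0.80, and Il15 was the one among them that was also called above unstimulated cells at 24 h. Il6 (-1.74, adjusted p = 0.357), Il1b (-0.13, adjusted p = 0.96) and Tnf (-0.94, adjusted p = 0.331) were not called against 6 h in the fit without the replicate block. Of the 42 antiviral genes 3 were lower at 24 h (Oas1g, Eif2ak2 and Tor3a) and 0 higher. Of the NF-kB subunits Rel was lower at 24 h (-1.02 ± 0.30, adjusted p = 0.0325), and of feedback inhibitors Nfkbiz, Tnip3 and Peli1. Among 32 acute phase, complement and iron genes 2 were higher at 24 h, Lcn2 by 1.90 ± 0.48 (adjusted p = 0.0127) and the iron transporter Slc11a1 by 1.41 ± 0.34 (adjusted p = 0.00957), and 0 lower. Among oxidative stress genes 5 of 25 were higher at 24 h than at 6 h (Gclm, Srxn1, Cat, Sod1 and Gsta3) and 0 lower, although none of these 5 was called against unstimulated cells. The endoplasmic reticulum chaperones Dnajc3 (-0.69 ± 0.11), Pdia6 (-1.02 ± 0.22) and Hspa5 (-1.11 ± 0.30) were lower at 24 h than at 6 h (adjusted p = 0.000266, 0.00417 and 0.0234).

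The third comparison tested whether the 24 h response of KO cells differed in size from that of control cells. The difference of responses, KO minus control, was called for 99 genes (0.879%), positive for 48 (0.426%) and negative for 51 (0.453%). Of the calls 48.5% were positive, against 61% with the scanner software's ratios (72 of 118) and 75% with median centring (15 of 20). When arrays lying together were averaged, 0 were called and 296 had an unadjusted p under 0.05. The count was 50 without KO unstimulated replicate 1, 54 without KO LPS 24 h replicate 3, and 65, 62 or 56 without control unstimulated replicate 1, 4 or 5. In neither genotype did a slide hold both 24 h and unstimulated arrays. With slide as a fixed block 85.9% of the 99 genes kept their direction, in a fit where the KO LPS 24 h side rested on replicate 5. This test uses the same KO arrays as the first comparison.

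The largest positive difference was in Slc1a2, a glutamate transporter. Its levels were 4.58, 4.79, 4.76, 3.24 and 2.88 in KO LPS 24 h arrays and 0.15, -0.04, 0.18, 0.18 and 0.18 in KO unstimulated arrays, none of which was well above background, a rise of at least 15.2-fold. In control cells they were 1.71, 0.77, 1.72, 1.15 and 0.75 after 24 h of LPS and 0.44, 0.42, 0.17, 0.46 and 0.27 unstimulated. All KO stimulated arrays lay above all control stimulated arrays, and the responses differed by 3.05 ± 0.44 (adjusted p = 0.000679). Zbp1, among the antiviral genes, rose by 3.91 in KO and 1.54 in control cells, a difference of 2.37 ± 0.49 (adjusted p = 0.0151). Its levels were 3.30 to 4.06 in KO LPS 24 h and -0.94 to 0.39 in KO unstimulated arrays, against 2.11 to 3.95 in control LPS 24 h and 1.54 to 1.85 in control unstimulated arrays. Gbp2 rose by 3.46 in KO and 1.28 in control cells (difference 2.18 ± 0.47, adjusted p = 0.0197), and without KO unstimulated replicate 1 it was 2.02 and not called (adjusted p = 0.0513). With slide as a fixed block the 2 differences were -0.07 and -0.29. KO unstimulated arrays lay below control unstimulated arrays for Zbp1, and stimulated arrays of the 2 genotypes overlapped. Of the other 41 antiviral genes and 15 GTPases none was called, and the lists' median difference of responses was 1.13 and 1.28 on the log2 scale, against 0.01 over all genes.

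Mgarp, a mitochondrial protein, and Hdac9, a histone deacetylase, responded by 2.16 and 2.20 in KO and -0.29 and 0.06 in control cells (differences 2.45 ± 0.58 and 2.14 ± 0.48, adjusted p = 0.0365 and 0.0268). The call of Mgarp ended on leaving out any 1 of 12 of the 20 arrays (adjusted p up to 0.0778) and that of Hdac9 on leaving out any 1 of 5, KO LPS 24 h replicates 1 to 3, KO unstimulated replicate 1 and control LPS 24 h replicate 5 (adjusted p up to 0.0652). Lifr, the receptor of leukaemia inhibitory factor, fell in control cells, with levels of -0.46, 0.74, -0.60, -0.39 and 0.03 after 24 h of LPS and 1.76, 1.91, 1.74, 1.73 and 1.86 unstimulated. In KO cells they were -0.62 to -0.27 after 24 h of LPS and -0.84 to -0.40 unstimulated and overlapped, so the positive difference of 2.01 ± 0.34 (adjusted p = 0.00489) is that of a fall in control cells and no call in KO cells. All KO unstimulated arrays lay below all control unstimulated arrays. Nfkbie and Psmb8 also had positive differences (1.21 ± 0.30 and 1.15 ± 0.27, adjusted p = 0.0446 and 0.0341).

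On the negative side Flvcr2, a choline and heme transporter, had levels of 1.21, 1.09, 0.42, 0.21 and 0.67 in KO LPS 24 h arrays and 4.01, 2.96, 2.44, 2.81 and 3.58 in KO unstimulated arrays. Its levels in control cells were 0.40, 0.97, 0.48, -0.01 and 0.05 after 24 h of LPS and 0.61, 0.88, 0.72, 0.30 and 0.40 unstimulated. All KO unstimulated arrays lay above the other 3 groups. KO cells fell by 2.44 and control cells had no call (-0.20, adjusted p = 0.712), a difference of -2.24 ± 0.39 (adjusted p = 0.00489), though -1.42 and not called with the scanner software's ratios (adjusted p = 0.681). Serinc5, a membrane protein that limits retrovirus infectivity, Elmo1, which activates Rac with a DOCK partner, Glcci1 and Slc39a8, a zinc transporter, fell in KO cells by 1.06, 0.83, 1.12 and 0.89. The control response was called for 1384 genes (12.3%), 7.22% higher and 5.07% lower. In control cells these 4 genes had differences of 0.88, 0.88, 0.50 and 0.71, of which Elmo1 was called (adjusted p = 0.0147). Their differences of responses were -1.94 ± 0.43, -1.71 ± 0.34, -1.62 ± 0.34 and -1.60 ± 0.35 (adjusted p = 0.0261, 0.0102, 0.0176 and 0.0232). Without KO unstimulated replicate 1 Serinc5 and Slc39a8 were not called, nor was Serinc5 without control unstimulated replicate 4 or 5 or Slc39a8 without KO LPS 24 h replicate 3 (adjusted p up to 0.0594 and 0.0588), and Slc39a8 turned to 1.86 with slide as a fixed block. Tcf7l2 fell by 2.49 in KO and had a difference of -0.57 in control cells (-1.92 ± 0.46, adjusted p = 0.0394), which lost its call on leaving out any 1 of 14 of the 20 arrays (adjusted p up to 0.0876).

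**Figure D5:**
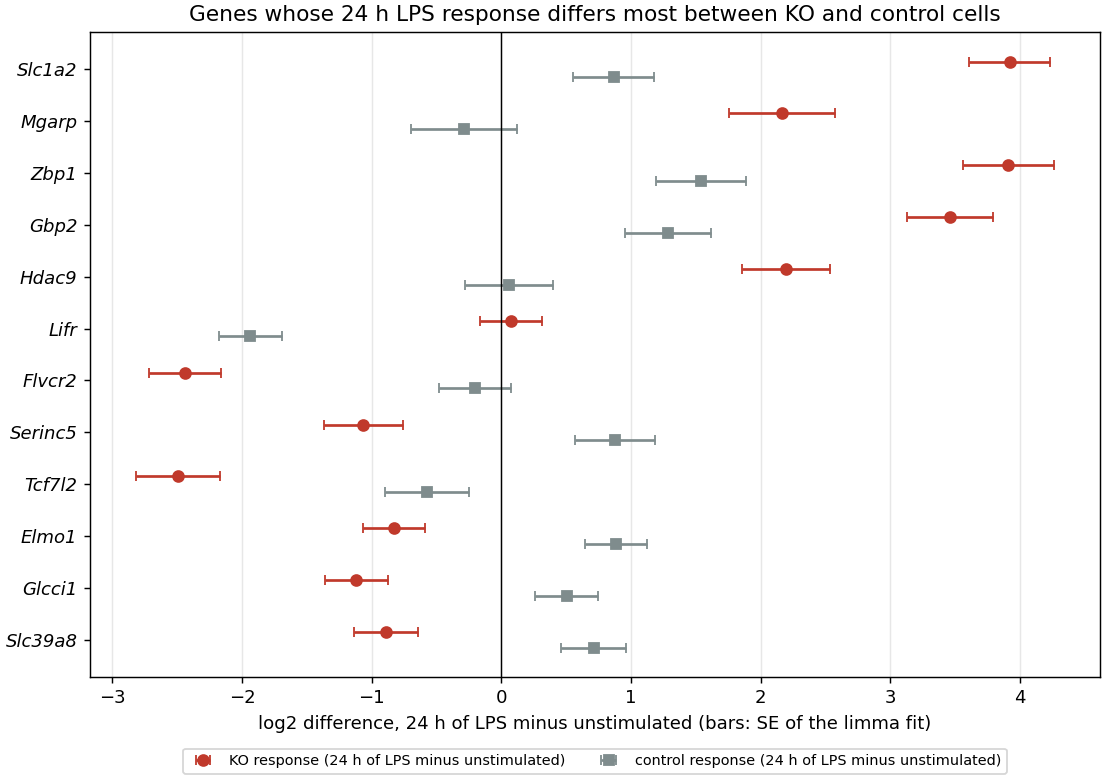
Log2 difference between 24 h of LPS and unstimulated cells (x axis, bars are SE of the limma fit) in KO (circles) and control cells (squares) for the 6 genes with the largest positive and the 6 with the largest negative difference of responses. Slc1a2 rose by 3.92 in KO and by 0.87 in control cells, Lifr stayed near 0 in KO and fell in control cells, and Flvcr2 was called lower in KO and not in control cells.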

How the data were processed

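RNA of CD11c-selected bone marrow-derived dendritic cells was hybridised to 30 Agilent 2-colour arrays, 5 in each of 6 groups, sample in Cy5 and a universal mouse reference in Cy3 without dye swap, per the labels' protocols. The deposited files hold, per the file headers, median spot and background intensity read with Feature Extraction 10.7.3.1, its own log10 ratio and flags for spots well above background. The authors' deposited table holds log2 ratios, made with limma per the submitters' processing notes, version not given in the sources used here. Its columns correlated at 0.999885 to 0.999998 with the ratios computed here, with medians of 0.00584 to 0.0183, so scale and direction are those of Cy5 over Cy3. That the table was centred in the same way rests on this comparison alone.

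From the intensities, backgrounds flagged as non-uniform were set to the array's median, background was corrected with normexp (offset 50), and each array was loess-normalised with control spots at weight 0 (limma 3.58.1, R 4.3.3). Spots of 1 probe were averaged, outlier-flagged spots left out, and no probe was saturated. Of 41174 probes 22951 were named through RefSeq accessions (GRCm38.p6), giving 16358 genes at the brightest probe each. A gene was tested when its Cy5 signal passed the scanner's well-above-background flag throughout at least 1 group, and the 11258 such genes were fitted with lmFit and eBayes on the log2 scale, 1 mean per group and 24 residual degrees of freedom, and p-values were adjusted by Benjamini-Hochberg over all genes. Where all arrays of a group were not well above background, "at least" folds set the other group's mean Cy5 signal against, per array, the higher of the probe's signal and the lowest signal well above background, and the fold of the ratios is given where it was smaller. The number of arrays limits the precision. The fit was tested on simulated data with independent noise on each array. Those data held neither the sets of arrays nor the slides seen here, so that test does not speak to them.

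Members, gene lists and tests were chosen with earlier results of these data known. Named by rule were the 10 largest rises and falls whose groups do not overlap, up to 3 called members per list in the main direction and 1 in the other by adjusted p, Irf4, all NF-kB subunits, 2 members by Cy5 signal where a list had no call, and 6 genes per direction of the other comparisons. Other list members were named after their values were seen. Deviations from group means correlated between same-numbered arrays of KO LPS 24 h and KO LPS 6 h at 0.852, 0.831, 0.792, 0.875 and 0.813. These numbers were taken to pair the arrays, as a pattern in the data that no label states, though the third correlated best with the second of KO LPS 6 h. Both groups split into replicates 1 to 3 and replicates 4 and 5, so such values cannot establish 1-to-1 pairs. The main fit did not use this pairing, and the replicate block did. Between KO LPS 24 h and KO unstimulated 4 pairs had 0.346 to 0.591 and the fourth 0.088, so those were not paired. Some members of the lists are counted but not reported by name here.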

Additional observations from a re-analysis of the deposited data

Results flagged for a closer look

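For 124 named genes of KO LPS 24 h against KO unstimulated, 2 groups of 5 arrays each were searched for an array whose gap to its neighbour takes over 0.71 of the group's range. For 5 independent values chance gives about 1 such group in 20, or 12.4 of the 248 searched, and 13 were found. The arrays of both groups lie in sets, so that rate need not hold here and nothing is drawn from the match. KO unstimulated replicate 5, which stood apart over all genes, was far from the rest in 6. It was low for Cd93 (4.22, the others 4.91 to 5.12), Sort1 (4.29, the others 5.38 to 5.76) and Tcf7l2 (0.53, the others 1.27 to 1.55). It was high for Gpr84 (2.11, the others 0.64 to 1.01), Nfkbie (0.77, the others -0.06 to -0.02) and Ptges (-1.83, the others -2.02 to -1.98). In all 6 it lay on the side of the stimulated cells. KO unstimulated replicate 1 was low for Fpr1 (1.36, the others 2.57 to 2.96), H2-Aa (2.68, the others 3.76 to 4.15) and Lcn2 (-1.21, the others -0.78 to -0.63), away from the stimulated side. KO unstimulated replicate 4 was high for Zbtb46 (0.56, the others 0.22 to 0.28). KO LPS 24 h replicate 4 was high for Fpr2 (6.16, the others 5.71 to 5.83) and low for Atp6v1b2 (1.497, the others 1.81 to 1.93), and KO LPS 24 h replicate 3 was low for Selenop (-0.83, the others -0.30 to -0.08). A cause of these levels was not tested.

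The 24 h responses of KO and control cells differed by the test of the difference for Zbp1 (2.37), Gbp2 (2.18), Nfkbie (1.21), Psmb8 (1.15) and Tcf7l2 (-1.92), all on the log2 scale as KO minus control.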

How the results depend on the processing

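Counts are given for KO LPS 24 h against KO unstimulated, against KO LPS 6 h, and for the difference of responses, where the fit described above called 2042, 872 and 99 genes. Median centring gave 1098, 373 and 20, and slide as a random block 1514, 475 and 35. Slide as a fixed block gave 6228, 5839 and 6028, a term for replicates 1 to 3 against 4 and 5 gave 3823, 2155 and 615, and leaving out the 2 control arrays on the later slide 2720, 1488 and 201. Cy5 alone called 213 genes in the difference of responses. The replicate block gave 3725, 2020 and 510; KO LPS 24 h and KO unstimulated arrays share numbers but were not taken as pairs, since the fourth correlated at 0.088 and best with the fifth, although the others correlated at 0.346, 0.463, 0.426 and 0.591, each best with its own number. The block ended no call among the 124 genes named against unstimulated cells and added that of Nfkb1. Leaving out 1 array gave 1543 to 1936, 492 to 927 and 50 to 108. Of alternatives chosen after seeing the data, averaging arrays that lie together gave 11, 0 and 0, replicates 1 to 3 alone gave 2171, 1585 and 196, replicates 4 and 5 alone 2945, 219 and 772, and leaving out KO unstimulated replicates 1 and 5 gave 1446 and 84. Within replicates 4 and 5, 10 of 12 genes named for 24 h against 6 h lost their call. The authors' deposited table changed no call among named genes. With slide as a fixed block 21 of 124 genes turned against unstimulated cells: Cxcl10 (-0.78), Rsad2 (-0.71), Ccr2 (0.25), Tnfaip3 (-1.29), Relb (-1.96), Nfkb2 (-2.29), Rela (-4.89), Calr (0.32), Slc7a11 (-0.0083), Sod2 (-1.40), Sdf2l1 (0.91), Slc16a3 (-0.89), Idh1 (0.52), Ebp (0.67), Cd36 (1.87), Npc2 (-1.24), Pcna (0.83), Csf3r (-0.41), Siglecf (2.10), Pdgfrb (-0.057) and Dcn (-0.025). Nfkb1, called in neither fit, also changed sign (-1.50). In the difference of responses Zbp1 (-0.075), Gbp2 (-0.29), Hdac9 (-1.91) and Slc39a8 (1.86) turned. Cy5 alone turned Chil3 (0.046). The cause of these changes was not tested. No slide held KO LPS 24 h together with KO unstimulated or KO LPS 6 h. Slide and treatment are told apart only through other groups, and for KO LPS 24 h only by replicate 5. A gene near background has less precise ratios.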

Other observations

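Families of genes that share a symbol stem, some of whose members are also in the lists above, were picked after their values were seen and are given with no test. Of all genes tested 10.3% rose and 7.85% fell. All 9 tested Gbp genes rose in KO LPS 24 h against KO unstimulated cells, with a median log2 difference of 3.46 (1.45 to 4.84), as did all 7 Oas genes, which make the activator of RNase L (median 2.15). Of 7 Slfn genes, regulators of translation and of cell growth, 6 rose (median 1.90), as did 6 of 8 Parp genes, of ADP-ribose transfer (median 1.18), and 0 fell in either family. Of 9 genes whose symbol begins with Ms, mainly the Ms4a membrane proteins, 7 rose and 0 fell (median 1.70), from 0.02 to 5.75. Of 9 Casp genes, proteases of cell death and inflammation, 5 rose and 1 fell (median 0.55). Among 38 Trim genes, ubiquitin ligases of which several act on viruses, 11 rose and 2 fell, and the median was 0.09. The large Slc transporter family held 23 that rose and 19 that fell of 218, or 19.3% called, against 18.1% of all genes. Of 214 odorant receptor genes, which myeloid cells are not known to use for smell, 14 rose and 3 fell (7.94% called), with a highest difference of 1.21.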
